A study of Mus musculus with 16 samples.

Results

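The 9 metastases of this series, out of 16 tumors profiled, were divided by where they grew. A tumor was called thoracic when its site label lay in the chest, which held for 4 tumors: a heart and a mediastinal lymph node metastasis of mouse 3, and a mediastinal lymph node and a parietal pleural metastasis of mouse 4. The other 5 were called distant: an inguinal, a liver and a subcutaneous metastasis of mouse 1, a liver metastasis of mouse 2 and a subcutaneous metastasis of mouse 3. All came from male mice carrying the p53R172HΔg/+ and K-rasLA1/+ alleles, and each was set beside the 1 primary lung adenocarcinoma profiled from the same mouse (4 tumors, n = 1 per mouse). K-rasLA1 is a latent oncogenic allele that is switched on by rare somatic recombination, and the p53 allele is a knock-in missense mutation (R172H) present in every cell. No treatment and no ages were given in the labels. Tumors were dissected from adjacent tissue by hand, so each RNA came from tumor cells together with the host cells within and around them. For such bulk samples, more cells of a type and more RNA per cell cannot be told apart.

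Lung adenocarcinoma spreads within the chest through lymphatics and the pleural surface, and to the liver, muscle and skin through the blood. In a new site the tumor cells meet another stroma, other blood vessels and other resident immune cells, and a profile of the whole tumor reads all of these together with the growth state of the tumor cells. The comparison of location asks which of these differ between the chest and the rest of the body. The array reads a transcript through sets of short probes, called probe sets, and a gene may have several. Values are intensities on a linear scale, raised to 1 where lower, and differences are thoracic minus distant on the log2 scale.

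Location was tied to the mouse. Both locations were sampled only in mouse 3. Mouse 4 gave thoracic tumors only, and mice 1 and 2 gave distant tumors only, so outside mouse 3 location and mouse cannot be told apart. The deviations of each tumor from the mean of the 9 were correlated over 16985 probe sets, as a description. In these values 8 of 9 tumors lay nearest to a tumor of their own mouse. The exception was the liver tumor of mouse 2, which had no other tumor of its mouse and lay nearest to the liver tumor of mouse 1 (r = 0.18). The subcutaneous tumor of mouse 3 had r = 0.51 with the lymph node tumor and 0.47 with the heart tumor of its mouse, although its location differed from theirs. Its correlations with the other 4 distant tumors lay between −0.55 and −0.35. The heart tumor of mouse 3 had r = −0.46 and −0.51 with both thoracic tumors of mouse 4, whose own correlation was the highest of all 36 pairs (0.67). For the 11 pairs that shared a location but not a mouse the median was −0.35, and for the 2 pairs that shared a mouse but not a location it was 0.49. All points share the same mean of 9, which pushes correlations below 0.

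**Figure D1:**
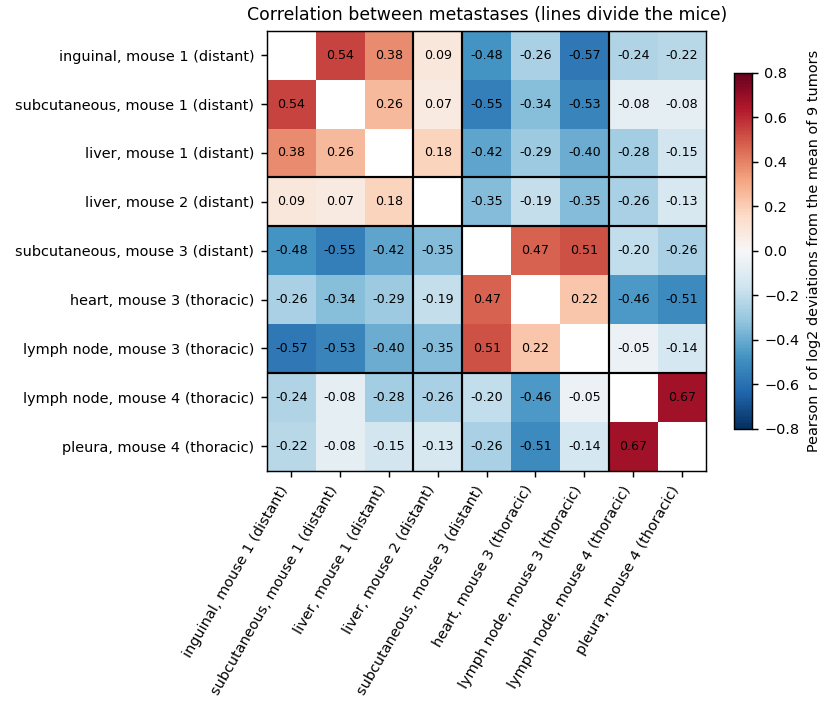
Pearson correlation between the 9 metastases of their log2 deviations from the mean of the 9, over 16985 probe sets, with black lines dividing the 4 mice and the location given in brackets. The squares along the diagonal are red within a mouse, and the subcutaneous tumor of mouse 3 is red with the thoracic tumors of mouse 3 (0.47 and 0.51) and blue with the distant tumors of mouse 1.

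No probe set passed an adjusted p of 0.05 (limma, Benjamini-Hochberg) in the comparison of thoracic with distant metastases, 0 of 22626 (0%), and the smallest adjusted p was 0.447. At an unadjusted p under 0.05 limma counted 1863 probe sets, and an equal-variance two-sample test without moderation counted 1661, of which again 0 passed the adjustment. At an unadjusted p under 0.01 limma counted 359 probe sets (1.59%), 135 higher and 224 lower (62.4% lower) in thoracic tumors. Quantile normalization gave 187 higher and 201 lower (51.8%), and centring every array on the array median gave 180 and 185 (50.7%). When each metastasis was first centred on the primary tumor of its mouse, 0 of 22626 passed (0%), with a smallest adjusted p of 0.236. The centred comparison counted 2923 probe sets at an unadjusted p under 0.05, where the test without moderation counted 2580 and passed 0 after adjustment. At p under 0.01 it counted 634 (2.8%), 184 higher and 450 lower (71% lower). The split was 296 and 325 with quantile normalization (52.3%) and 270 and 314 with median centring (53.8%). With the mouse as a replicate block, which leaves mouse 3 alone to estimate the location difference, 3 probe sets passed in either comparison. All 3 were dim. Gtpbp2, a GTP-binding protein, was at 33.6 and 23.3 in the heart and lymph node tumors of mouse 3 and at 1 in the other metastases. Epha3, an ephrin receptor, and Tesc, tescalcin, were at 48.8 and 6.85 in the subcutaneous tumor of mouse 3 and at 1 in the others. The tests treat tumors of 1 mouse as separate samples. The differences that follow are therefore given with unadjusted p-values, as a description of these 9 tumors, and none of them passed correction.

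Of the 24 genes that stood furthest apart in either direction (12 each way, chosen by smallest p among bright probe sets that differed by at least 1 log2 unit), 15 did not overlap between the locations. Over all 12393 genes, every thoracic tumor lay above every distant tumor for 0.654% and below for 1.29%. An exact permutation test over the 9 tumors (two-sided) gave p = 0.0159 for each of the 15, the smallest it can give. The genes were chosen on this contrast, so these values are a description. The values of each are given for the heart and lymph node tumors of mouse 3 and the lymph node and pleural tumors of mouse 4, and then for the inguinal, liver and subcutaneous tumors of mouse 1, the liver tumor of mouse 2 and the subcutaneous tumor of mouse 3.

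The first of the higher genes was Dcn, decorin, a small proteoglycan that fibroblasts lay down on collagen. Its intensity was 1113, 1731, 1494 and 903 in the thoracic tumors and 175, 738, 264, 241 and 326 in the distant ones. The groups did not overlap, and the liver tumor of mouse 1 came nearest to the thoracic range. The difference was 2.05 ± 0.40 log2 units (SE), or 4.15-fold (unadjusted p = 0.000658, limma adjusted p = 0.584). Within mouse 3 (the mean of its heart and lymph node tumors minus its subcutaneous tumor) it was 2.09. It was 1.95 between the other mice. After centring on the primary tumors, which were at 264, 400, 655 and 615 (mice 1, 2, 3 and 4), it was 1.17 ± 0.48 and the groups overlapped. Without centring, decorin was thus among the genes that differed by location within mouse 3 as much as between mice.

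Most other higher genes did not share that property. Dynlt3, a light chain of the dynein motor, was at 805, 693, 792 and 506 in thoracic tumors and at 212, 250, 257, 242 and 607 in distant tumors. The single distant tumor inside the thoracic range was the subcutaneous tumor of mouse 3. Dst, dystonin, a linker of the cytoskeleton, had the same shape, with 586, 537, 593 and 422 against 191, 103, 108, 51.2 and 472. The subcutaneous tumor of mouse 3 was above the other 4 distant tumors for 11 of the 12 higher genes, and for 10 of the 12 lower genes it was below them. Cav2, caveolin 2, differed by 1.91 between the other mice and by 0.21 within mouse 3, and Irak1, a kinase of interleukin 1 and Toll-like receptor signalling, by 1.73 and 0.24. Rgs5, a marker of pericytes around small vessels, was at 71.7, 343, 626 and 505 in thoracic tumors and at 64.7, 21.2, 92.6, 31.2 and 96.1 in distant ones. Here the heart tumor lay with the distant tumors, and the other 3 thoracic tumors stood above all of them.

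The lower genes were led by Casp6, an executioner caspase, and Hnf4a, a nuclear receptor that drives liver and gut epithelial genes. Hnf4a was at 276, 261, 270 and 268 in the thoracic tumors and at 1144, 696, 648, 565 and 421 in the distant tumors. The 4 thoracic values were nearly equal, and the distant tumor nearest to them was again the subcutaneous tumor of mouse 3. The difference was −1.29 ± 0.26 (unadjusted p = 0.000737, limma adjusted p = 0.584) and −1.40 ± 0.34 after centring, and the groups did not overlap in either. The 2 liver tumors, at 696 and 565, were not the highest, and the inguinal tumor was.

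Ly6d, a membrane protein of epithelial and early B cells, was at 21.7, 46.2, 66.7 and 78.8 in thoracic tumors against 405, 671, 174, 732 and 97.8 in distant tumors. In the primary lung tumors it was at 339, 347, 410 and 864 (mice 1, 2, 3 and 4), so the thoracic metastases lay under every primary tumor, as did both subcutaneous tumors (174 and 97.8). The difference was −2.74 ± 0.66 without centring and −3.49 ± 0.64 with it (unadjusted p = 0.000397, limma adjusted p = 0.350). Within mouse 3 it was −1.63. Mif, a cytokine that acts on macrophages, differed by −1.48 ± 0.31, with 967, 831, 444 and 643 against 2802, 2517, 1477, 2047 and 1254. Golm1, a Golgi membrane protein, differed by −1.05 ± 0.23 and by −0.43 within mouse 3. Cdk4, the cyclin D kinase that starts the cell cycle, was at 195, 201, 159 and 181 against 750, 489, 393, 641 and 248, a difference of −1.36 ± 0.30. Pfkl, the liver type of the glycolytic enzyme phosphofructokinase, differed by −1.26 ± 0.29 and by −0.82 within mouse 3. All 5 had non-overlapping groups without centring. After centring, Ly6d and Golm1 (−1.03 ± 0.24) still did not overlap. Mif (−1.18 ± 0.35), Cdk4 (−0.90 ± 0.33) and Pfkl (−0.69 ± 0.28) overlapped, with smaller differences than without centring.

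Cks2, a small partner of the cyclin-dependent kinases, Msh6, a DNA mismatch repair protein, and Cdt1, a licensing factor for DNA replication, were also in the lower set. Cks2 differed by −2.18 between the other mice but by −0.06 within mouse 3, and Msh6 by −2.09 and −0.05. Cdt1 was at 129, 111, 58.8 and 88.1 in thoracic tumors and at 282, 249, 191, 312 and 133 in distant tumors, with −0.16 within mouse 3. For these 3 genes the subcutaneous tumor of mouse 3 lay at or next to the thoracic values of its own mouse.

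The remaining genes of the set follow, some of which changed with the primary tumor. Casp6 was at 286, 271, 208 and 237 in thoracic tumors and at 519, 459, 808, 545 and 397 in distant tumors, without overlap. The difference was −1.09 ± 0.21, −0.51 within mouse 3 and −1.22 ± 0.30 after centring, where the groups overlapped. Tm4sf1, a membrane protein of epithelial and endothelial cells, differed by −1.19 ± 0.26 and by −1.04 within mouse 3, but by −0.41 ± 0.34 after centring. Prdx2, a peroxide-removing enzyme, went from −1.12 ± 0.24 to −0.35 ± 0.29 on centring, and Dynll2, another dynein light chain, from 1.34 ± 0.32 to 0.02 ± 0.26, so for these 3 the primary tumors differed between the mice in the same direction. Adcy7, an adenylyl cyclase of blood cells, was at 52.7, 244, 241 and 185 against 35.5, 46.4, 40.2, 27.8 and 87.6, with the heart tumor inside the distant range. Cndp2, a peptidase, differed by 1.06 ± 0.29 and by 0.38 within mouse 3. A dimmer H2-Ab1 probe set had 255, 177, 182 and 155 against 87.8, 81.7, 117, 53.4 and 143, without overlap. The brightest H2-Ab1 probe set overlapped, with 1869, 2298, 2304 and 1925 against 873, 1102, 939, 606 and 2169. Within mouse 3 the dimmer set differed by 0.57 and the brightest by −0.07.

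**Figure D2:**
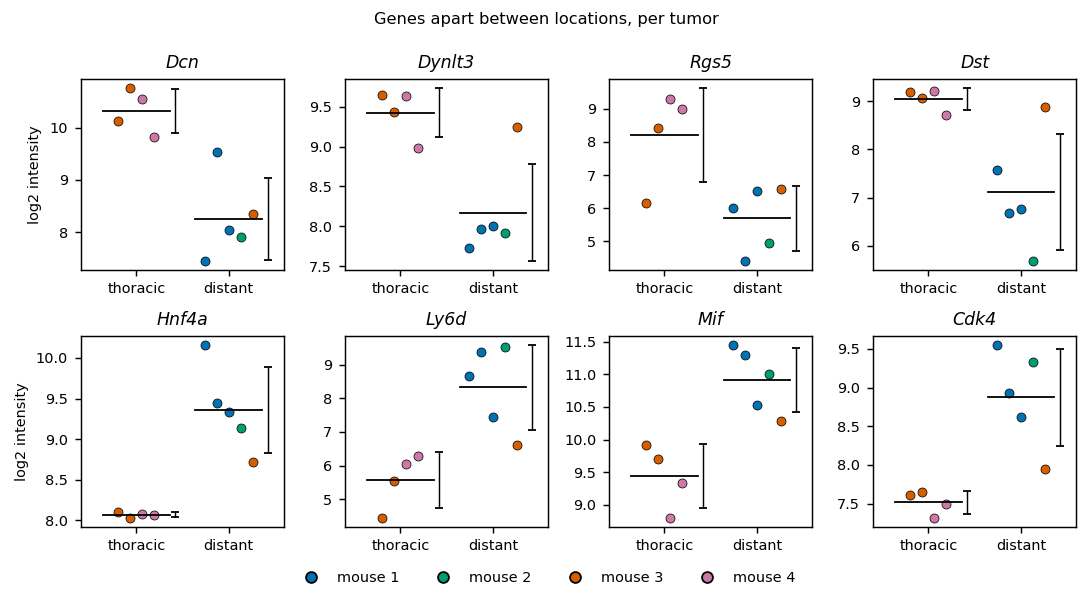
Intensity on a log2 scale of 8 genes in the 4 thoracic and 5 distant metastases, coloured by mouse, with the mean as a line and the SD as a bar at the side (n = 4 and 5, counting each tumor once). Dcn and Ly6d were apart also within mouse 3, whereas the distant point of mouse 3 lay inside the thoracic range for Dynlt3 and Dst.

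Gene lists were read at the brightest probe set of each gene over the 9 tumors, and their counts were set against all 12393 genes. Of all genes, 2.95% were higher and 5.2% lower in thoracic tumors at an unadjusted p under 0.05, with a median difference of −0.01. No member of any of the 41 lists passed an adjusted p of 0.05 (limma) in either comparison.

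DNA replication needs the origin recognition complex (the Orc proteins), the MCM helicase loaded by Cdc6 and Cdt1, and the clamp Pcna with its loader, the Rfc proteins. Of 33 replication genes measured, 16 were lower in thoracic tumors at p under 0.05 (48.5%), 0 were higher and 17 did not meet it, with a median difference of −0.76. Pcna was at 650, 791, 365 and 416 in thoracic tumors and at 1789, 1024, 1516, 1569 and 552 in distant tumors. Mcm7, a helicase subunit, was at 543, 620, 408 and 425 against 1627, 955, 1290, 1413 and 446. In both genes the 4 tumors of mice 1 and 2 were above every tumor of mice 3 and 4, and the subcutaneous tumor of mouse 3 lay within the thoracic range.

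Within mouse 3 the replication genes ran the other way on balance, with a median of 0.11, 20 of 33 higher in the thoracic tumors, and 0.38 for Pcna and for Mcm7. Between the other mice their median was −0.98. The members that stayed lower within mouse 3 included Rfc5 (−0.37), Mcm3 (−0.32) and Orc6 (−0.13). Their groups did not overlap: Orc6 was at 61.1, 51.5, 59.4 and 53.6 in thoracic tumors and at 134, 89.0, 103, 143 and 61.2 in distant tumors. After centring on the primary tumors, 16 of 33 replication genes were again lower (48.5%, against 8.59% of all genes) and 0 higher (against 4.03%), with a median of −0.73.

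Of 39 genes of mitosis, 12 were lower at p under 0.05 (30.8%) and 1 was higher, with a median difference of −0.49. Kif23, a kinesin of cytokinesis, was at 75.5, 63.4, 19.6 and 28.7 in thoracic tumors and at 161, 205, 151, 190 and 70.4 in distant tumors. Bub1b, a spindle checkpoint kinase, was at 58.9, 61.2, 24.6 and 33.1 against 157, 128, 142, 199 and 49.6. Both separated mice 1 and 2 from mice 3 and 4, and mouse 4 was lowest. The median of the list was −0.97 between the other mice and 0.20 within mouse 3, where 30 of 39 were higher in the thoracic tumors. Pttg1, securin, which delays the separation of sister chromatids until anaphase, was the only member higher at p under 0.05. It was at 611, 680, 638 and 608 in thoracic tumors and at 443, 449, 448, 355 and 504 in distant ones, without overlap. The difference was 0.54 ± 0.13, 0.36 within mouse 3 and 0.45 ± 0.30 after centring, where the groups overlapped.

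Stretches of 3 replication promoters are shown because they hold the letters TTTGGCGC, a form of the site of E2F factors, which switch replication genes on at the start of S phase. The letters, searched on both strands from 250 bases before to 50 after the start site, were in 6 of 29 replication genes with a promoter in the RefSeq table (20.7%), in 0 of 33 mitosis genes and in 0.585% of 27025 genes. A match is a description and not a bound site. The stretches are from RefSeq, build GRCm38.p6, 5′ to 3′ on the strand of the gene, with the letters in capitals: Cdt1 at chr8:122567987-122568064 on the + strand, Mcm3 at chr1:20820263-20820334 on the − strand and Mcm6 at chr1:128359705-128359875 on the − strand, which holds 2 matches.
Cdt1: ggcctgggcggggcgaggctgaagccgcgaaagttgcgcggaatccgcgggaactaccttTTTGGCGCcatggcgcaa
Mcm3: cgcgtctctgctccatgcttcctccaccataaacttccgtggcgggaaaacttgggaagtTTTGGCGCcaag
Mcm6: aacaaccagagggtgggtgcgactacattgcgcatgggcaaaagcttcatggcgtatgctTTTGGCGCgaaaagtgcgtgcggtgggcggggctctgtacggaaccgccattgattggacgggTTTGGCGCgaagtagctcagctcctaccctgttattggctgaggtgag

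MHC class II molecules present peptides to helper T cells and are made by macrophages, dendritic cells and B cells, and also by some lung epithelial cells. Of 7 genes of class II presentation, 5 were higher in thoracic tumors at p under 0.05 (71.4%) and 0 lower, with a median difference of 1.01. H2-Aa, the alpha chain of the I-A molecule, was at 2081, 3741, 3928 and 2665 in thoracic tumors and at 907, 1059, 976, 683 and 2702 in distant tumors. H2-Eb1, the beta chain of I-E, was at 1817, 3042, 3015 and 2727 against 1015, 1104, 861, 605 and 2457. Both genes were brighter in every tumor of mice 3 and 4 than in any tumor of mice 1 and 2, whatever the location.

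The difference of H2-Aa was 1.43 ± 0.39 (unadjusted p = 0.00545, limma adjusted p = 0.584), 1.85 between the other mice and 0.05 within mouse 3. The list had a median of 1.29 between the other mice and −0.06 within mouse 3. There 6 of 7 genes were lower in the thoracic tumors, but all genes had the same median and 40.9% were higher. Class II thus did not stand apart from all genes within mouse 3. Ciita, the transactivator of class II genes, lay between 140 and 203 in all 9 tumors. The matched primary tumors, in the order of mice 1, 2, 3 and 4, had H2-Aa values of 1950, 2819, 2103 and 2221. The metastases of mice 1 and 2 all lay below those values, the heart tumor was close to its own (2081), and the other 4 metastases lay above theirs.

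The promoters of H2-Aa and H2-Eb1 are shown because both hold CTGATTGG, the reverse form of the CCAAT element known as the Y box of class II genes. It was in 2 of the 4 class II genes with an entry in the table and in 4.7% of all 27025 genes, and also in 27.3% of 33 mitosis genes and 17.2% of 29 replication genes, whose medians were below 0. The stretches lie at chr17:34287827-34287934 on the − strand and chr17:34305745-34305852 on the + strand (RefSeq, GRCm38.p6), 5′ to 3′ on the strand of the gene, with the letters in capitals.
H2-Aa: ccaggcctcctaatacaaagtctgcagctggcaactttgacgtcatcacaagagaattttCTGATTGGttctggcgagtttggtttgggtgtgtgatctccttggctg
H2-Eb1: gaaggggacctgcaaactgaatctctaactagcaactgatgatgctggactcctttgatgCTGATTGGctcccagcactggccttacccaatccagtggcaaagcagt

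Of 13 macrophage genes, 4 were higher at p under 0.05 (30.8%) and 0 lower, with a median difference of 0.81. After centring 1 of 13 met that p, with a median of 0.14, against 3 of 7 and 0.83 for class II. Within mouse 3, 9 of 13 were higher in the thoracic tumors, with a median of 0.08. C1qa, a complement component made by tissue macrophages, was at 1240, 1323, 623 and 553 in thoracic tumors and at 259, 350, 296, 196 and 956 in distant tumors. Csf1r, the receptor for macrophage colony-stimulating factor, was at 1079, 2354, 1543 and 1088 against 512, 655, 734, 453 and 1571. The subcutaneous tumor of mouse 3 lay inside the thoracic range for both. Within mouse 3 the difference was 0.42 for C1qa and 0.02 for Csf1r. Fcgr1, a receptor for the constant part of antibodies, was at 40.1, 56.4, 46.1 and 40.5 against 28.7, 23.6, 36.1, 33.5 and 35.7, without overlap, and differed by 0.41 within mouse 3. The summed intensity of the macrophage list was 5125 to 10376 in thoracic and 2800 to 8744 in distant tumors, and its part in the class II difference was not tested.

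**Figure D3:**
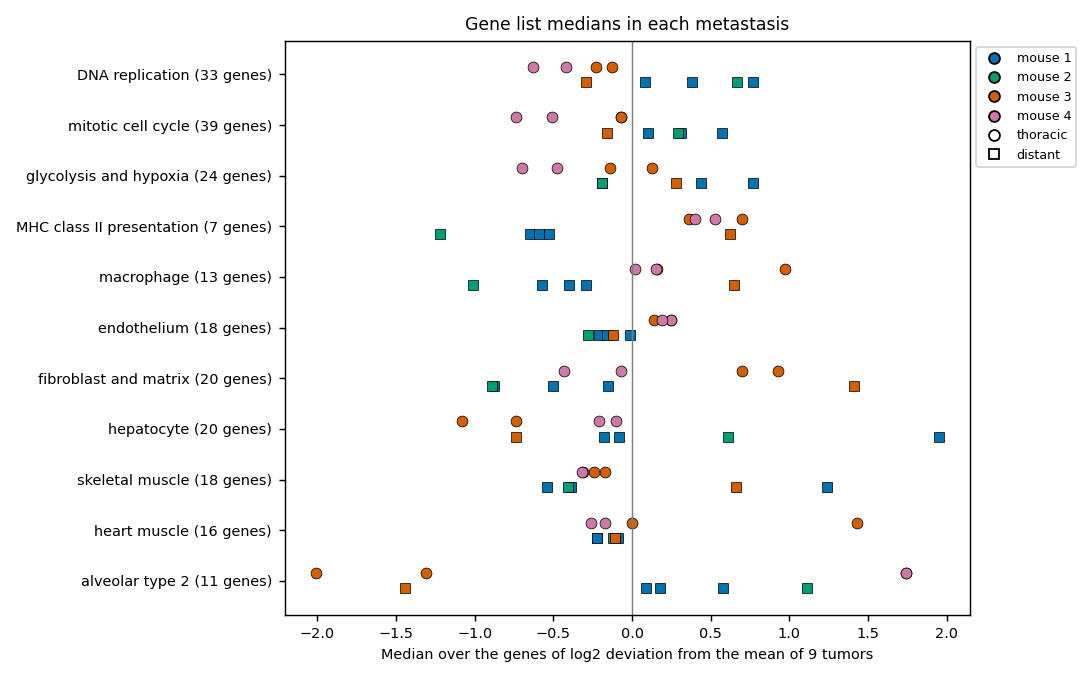
Median over the genes of each list of the log2 deviation from the mean of the 9 metastases, with circles for thoracic and squares for distant tumors, coloured by mouse. For DNA replication and MHC class II the square of mouse 3 lay among the circles, whereas for endothelium every circle (0.14 to 0.25) lay to the right of every square (−0.28 to −0.01).

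Genes of blood vessel lining kept their direction inside mouse 3. Of 18 endothelial genes, 5 were higher in thoracic tumors at p under 0.05 (27.8%) and 0 lower, 16 had a positive difference, and the median was 0.36. Within mouse 3, 16 of 18 were higher in the mean of the heart and lymph node tumors, with a median of 0.24. All genes had a median of −0.06 there and 40.9% were higher. The heart tumor alone lay below the subcutaneous tumor for some members, Kdr, Cldn5 and Esam among them. Its list median was still above that of the subcutaneous tumor (0.14 against −0.12). Between the other mice the median was 0.37. After centring, 6 of 18 were higher (33.3%) and the median was 0.48.

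Vwf, von Willebrand factor, which vessels release to bind platelets, was at 22.4, 80.7, 9.95 and 23.1 in thoracic tumors and at 1.51, 5.26, 1.04, 2.52 and 5.14 in distant tumors. The groups did not overlap, but all 9 values were dim beside the primary tumors of mice 1 and 2 (201 and 227). The difference was 3.32 ± 0.69 (unadjusted p = 0.00097, limma adjusted p = 0.584) and 3.05 within mouse 3. Sox18, a transcription factor of vessel formation, was at 80.2, 79.6, 99.9 and 130 against 64.4, 57.8, 55.4, 23.3 and 30.5, also without overlap, and differed by 1.39 within mouse 3. Pecam1, an adhesion molecule between endothelial cells, differed by 0.64 ± 0.19 and by 0.91 within mouse 3. Cdh5, the cadherin of endothelial junctions, was highest in the 2 lymph node tumors (404 and 251) and was 98.2 in the heart tumor, inside the distant range of 65.1 to 117.

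Decorin aside, few fibroblast genes were apart by location. Of 20 genes, 2 were higher (10%) and 0 lower, with a median of 0.48 that became 0.08 after centring and −0.71 within mouse 3. The subcutaneous tumor of mouse 3 had the highest list median of the 9 (1.41), above the heart and lymph node tumors of its mouse (0.70 and 0.93). Col6a1, a chain of type VI collagen, was at 783, 639, 655 and 621 in thoracic tumors and at 316, 447, 372, 257 and 1532 in distant tumors, with the subcutaneous tumor of mouse 3 highest.

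Of 24 genes of glycolysis and the response to low oxygen, 5 were lower in thoracic tumors at p under 0.05 (20.8%), 0 were higher and 19 did not meet it, with a median of −0.51. The 24 include Pigq, which is not a gene of glycolysis and was not among the 5. It differed by 0.19, by −0.16 after centring and by −0.28 within mouse 3. The list median was 0.13, −0.14, −0.48 and −0.70 in the heart, both lymph node and the pleural tumors and 0.44, 0.77, −0.19, −0.19 and 0.28 in the distant tumors, so the locations overlapped. After centring, all 24 differences were negative and 6 met that p (25%). Within mouse 3, 22 of 24 were lower in the thoracic tumors, with a median of −0.24. P4ha1, a collagen prolyl hydroxylase induced by low oxygen, was at 154, 152, 215 and 160 in thoracic tumors and at 349, 525, 236, 294 and 233 in distant tumors, without overlap. Ndrg1, another gene induced by low oxygen, was at 156, 209, 251 and 199 against 1171, 1372, 599, 192 and 368, and the liver tumor of mouse 2 lay inside the thoracic range. Ldha, lactate dehydrogenase, was at 3139, 2375, 2044 and 1532 against 3467, 3489, 2753, 2861 and 3151.

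Chemokines and their receptors had 3 of 21 higher (14.3%) and 0 lower, with a median of 0.32, and 0.03 within mouse 3. Genes of cholesterol and fatty acid synthesis had 3 of 18 lower (16.7%) and 0 higher, with a median of −0.14. Targets of p53 had 2 of 16 higher (12.5%) and 0 lower, with a median of 0.01, and after centring 1 higher and 5 lower (31.2%, against 8.59% of all genes), with a median of −0.04. Mesenchymal genes and regulators of epithelial to mesenchymal transition had 1 of 15 higher and 0 lower. Their list median was highest in the subcutaneous tumor of mouse 3 (1.00), followed by its lymph node (0.50) and heart (0.45) tumors. The other 6 tumors were at −0.38 to −0.17. Epithelial junction genes had 0 of 21 higher and 1 lower, with a median of −0.10. TGF-beta signalling had 0 of 19 higher and 2 lower, with a median of −0.05, and integrins had 0 of 14 in either direction, with 0.13. After centring, 4 chemokine genes were higher and 2 lower, and integrins had 1 in each direction. The cholesterol list had 4 lower, the mesenchymal list 2 (Vim and Lgals1), junction genes 1 and TGF-beta genes 1, each with 0 higher. For the mesenchymal list, as for the fibroblast list, mouse 3 stood apart in both locations. Its primary tumor was also the highest matched primary for Vim (5636 against 777 to 1556) and Hmga2 (1915 against 157 to 378). It was not the highest for Zeb1 or Snai1.

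Because only mouse 3 held both locations, the difference between the other mice was used to choose probe sets and mouse 3 was then read at those probe sets, which it had not helped to choose. This comparison was added after the data had been seen, and no p-value was computed. Between mouse 4 (thoracic) and mice 1 and 2 (distant), 1535 probe sets had p under 0.01, 702 higher and 833 lower. In mouse 3, the mean of the heart and lymph node tumors minus the subcutaneous tumor had the same sign for 37.5% of them, against 44.2% of 22409 probe sets with any difference. The heart tumor alone shared the sign for 24.5% (all probe sets 38.0%) and the lymph node tumor for 61.8% (all probe sets 52.8%). On a scale where 0 is the mean of the distant tumors of mice 1 and 2 and 1 is the mean of the thoracic tumors of mouse 4, the heart tumor had a median position of 0.14, the subcutaneous tumor 0.53 and the lymph node tumor 0.67. Over all 22409 probe sets these positions were 0.13, 0.53 and 0.63. The 2 thoracic tumors of mouse 3 thus lay on either side of its distant tumor.

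**Figure D4:**
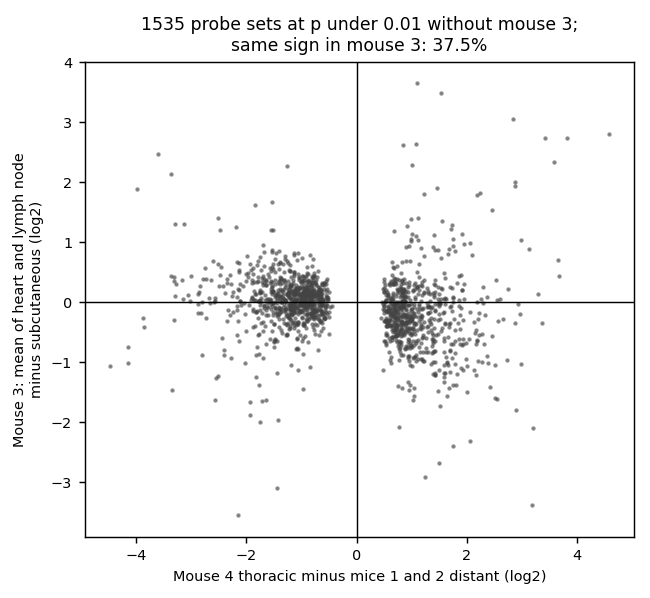
Each point is 1 of the 1535 probe sets with p under 0.01 between mouse 4 and mice 1 and 2, with that log2 difference on the horizontal axis and the difference within mouse 3 (heart and lymph node mean minus subcutaneous) on the vertical axis. The points lay mostly between −1 and 1 on the vertical axis, and 37.5% were in the lower left or upper right quadrant.

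Markers of the host organ were high in single tumors and were set beside these results. Of 16 heart muscle genes, only Myl4 met p under 0.05, lower in thoracic tumors, yet the heart metastasis stood apart with a list median of 1.43, the other 8 tumors lying between −0.26 and 0. Nppa, atrial natriuretic peptide, was at 2161 in the heart tumor and 3.02 to 35.4 in the others, and Actc1, cardiac actin, was at 1052 and 28.7 to 50.7. Myh6, the main cardiac myosin, was at 6.55 in the heart tumor. The summed intensity of the list was 677 to 6282 in thoracic tumors and 692 to 796 in distant tumors.

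The study names the inguinal and subcutaneous tumors as tumors of the body wall. Skeletal muscle genes were high in the inguinal tumor and the subcutaneous tumor of mouse 3, with list medians of 1.24 and 0.66 and the other tumors at −0.54 to −0.17. Acta1, skeletal actin, was at 572 and 372 in these, 167 in the heart tumor and 28.3 to 59.0 in the rest. Mylpf, a myosin light chain of fast fibers, was at 261 and 92.3 in these and 14.4 to 26.9 in the rest. Of 18 genes, 1 was lower in thoracic tumors at p under 0.05 (5.56%) and 0 higher.

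Hepatocyte genes had a median difference of −0.94, with 4 of 20 lower (20%) and 0 higher, and −1.20 after centring. Fgg, a fibrinogen chain, was at 674 in the liver tumor of mouse 1, 110 in that of mouse 2 and 2.36 to 8.27 in the other 7. Hpx, hemopexin, was at 1457 and 293 in the liver tumors, 199 in the inguinal tumor and 46.7 to 88.6 in the rest. Other serum protein genes were bright outside the liver as well. Ttr, transthyretin, was at 2916, 1988 and 3608 in the inguinal, liver and subcutaneous tumors of mouse 1 and 1767 in the liver tumor of mouse 2, with 353 and 502 in mouse 4 and 51.2, 63.7 and 137 in mouse 3. Alb, albumin, was at 2761, 3234, 1158 and 1285 in mice 1 and 2, 635 and 958 in mouse 4 and 60.1 to 127 in mouse 3. Ttr and Alb were thus ordered by mouse, while Fgg was bright in the 2 liver tumors alone. The summed intensity of the hepatocyte list was 1600 to 4204 in thoracic and 1941 to 15216 in distant tumors. The part of host tissue in the differences of location was not tested.

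**Figure D5:**
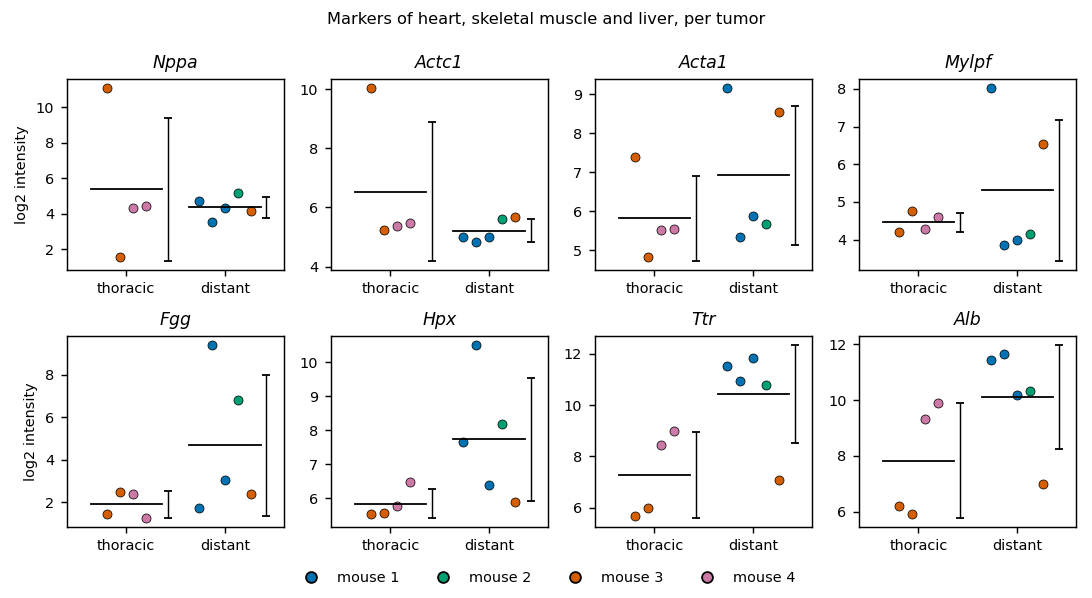
Intensity on a log2 scale of markers of heart muscle (Nppa, Actc1), skeletal muscle (Acta1, Mylpf) and liver (Fgg, Hpx, Ttr, Alb) in the 9 metastases, coloured by mouse, with the mean as a line and the SD as a bar at the side (n = 4 thoracic and 5 distant). Single tumors carry the high values of the heart, muscle and fibrinogen markers, while Ttr and Alb divide the mice.

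Few lymphocyte genes met the unadjusted threshold without centring. Of 12 B cell genes, 0 met p under 0.05 in either direction and the median was 0.13. Of 15 T cell genes 1 was lower and 0 higher, with a median of 0.14. After centring, 2 B cell genes were higher (16.7%, against 4.03% of all genes) and 0 lower, with a median of 0.19. Among T cell genes 3 were then lower (20%, against 8.59%) and 0 higher, with a median of −0.02. Among the metastases, immunoglobulin transcripts stood apart in some thoracic tumors. Igkv8-30, a kappa light chain variable segment read by a probe set that may cross-react with its many relatives, was at 188, 2803, 1677 and 512 in thoracic tumors and at 112, 140, 131, 125 and 181 in distant tumors. Ighm, the heavy chain of IgM, was chosen after its values had been seen: at 1 probe set it was 59.8, 2875, 3097 and 784 in thoracic tumors and 57.2, 84.2, 48.5, 76.7 and 59.5 in distant tumors. The lymph node and pleural tumors were bright and the heart tumor was not, with a difference of 3.65 ± 1.05 (limma adjusted p = 0.584). The brightest Ighm probe set differed by 0.24 only. Primary tumors were bright as well: Igkv8-30 was at 1925, 1963, 677 and 1313 in those of mice 1, 2, 3 and 4. The first Ighm probe set was at 625, 118, 131 and 550 in them. Lymph node stroma and lymphatic genes had 0 of 6 at p under 0.05 and a median of 0.11.

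The alveolar type 2 list, which marks the lineage of this adenocarcinoma, divided the mice. Sftpc, surfactant protein C, was at 87.5, 123 and 95.0 in the heart, lymph node and subcutaneous tumors of mouse 3, where the primary tumor was at 4802, and at 1096 to 6311 in the other 6 metastases. Nkx2-1, the lung lineage factor of these tumors, was at 1.07 and 4.01 in the heart and lymph node tumors and 15.7 in the subcutaneous tumor of mouse 3, and at 20.4 to 56.5 in the others. The primary tumor of mouse 3 was itself at 14 for Nkx2-1, under the subcutaneous tumor. All these Nkx2-1 values were dim, under the median intensity of every metastasis (76.6 to 85.5). Sftpd, surfactant protein D, was at 308, 551 and 1079 in the heart, lymph node and subcutaneous tumors of mouse 3, and Lpcat1, an enzyme of surfactant lipid synthesis, was at 441, 503 and 526. Foxa1, another lung lineage factor, was at 377, 496 and 449 in them, so the low values were not shared by every marker of the lineage. Of 11 type 2 genes 1 was higher in thoracic tumors (9.09%) and 0 lower, with a median of −0.12 that was 1.36 between the other mice and −0.16 within mouse 3. Napsa, an aspartic protease of type 2 cells, was the higher gene, at 1506 and 1699 in mouse 4 and 109 to 242 in the other 7 tumors.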

How the data were processed

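One Affymetrix Mouse 430A 2.0 array was hybridized per tumor. The deposited intensity values were computed by the authors in dChip as model-based values of the perfect match signal less the mismatch signal, after scaling to an invariant set of probes, on a linear scale. The 64 control probe sets were left out. Of 22626 others, 20380 carry 1 gene symbol, 691 several and 1555 none in the platform annotation, updated through RefSeq identifiers. Values under 1 were raised to 1 (3.75% of the values of the 9 metastases were at or under 1) and log2 taken. The median intensity lay between 76.6 and 85.5 per metastasis, and the number of arrays limits the precision.

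Thoracic was compared with distant in limma 3.58.1 (R 4.3.3), with and without subtracting the matched primary tumor, adjusted by Benjamini-Hochberg over all probe sets. The residual degrees of freedom were 7. Tumors of 1 mouse share that mouse and, when centred, its primary tumor. The mouse numbers come from the labels and mark the animal. Exact permutation of the 9 tumors cannot go below a two-sided p of 0.0159.

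The named genes were the 12 higher and 12 lower of smallest p, 1 probe set per gene, with a mean log2 of at least 6 over the 9 tumors and a difference of at least 1, and in each list the brightest and those of smallest p. Other list members that the text names were chosen after their values had been seen. The comparison, the members and the 41 lists were chosen with earlier results of these data known. Alternatives were floors at the 10th and 25th percentiles (5.54 and 24.3), dim probe sets left out, quantile normalization, median centring, the mouse as a block, 1 mean per mouse and location, a variance trend with a robust prior, a two-sample test without moderation, and tumors, mice or sites left out. The limma code was tested on simulated data.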

Additional observations from a re-analysis of the deposited data

Results flagged for a closer look

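Within the 4 thoracic or 5 distant tumors, 76 sets of values (24 genes and 14 list medians in both locations) were searched for a tumor set far apart from its group, and 5 were found; chance gives about 1 in 20. Among distant tumors the subcutaneous tumor of mouse 3 was far above the rest for Irak1 (120) and Dynlt3 (607). Among thoracic tumors the heart tumor was far above the rest for the heart muscle list (1.43) and far below for the B cell list (−0.12), and the lymph node tumor of mouse 3 was far above the rest for the macrophage list (0.97). List values are medians of log2 deviations from the mean of the 9 tumors.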

How the results depend on the processing

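The count of probe sets at an adjusted p of 0.05 (limma) was 0 in both comparisons. Without centring it was 3 with the mouse as a replicate block and 1 without both lymph node tumors. With tumors or mice left out one at a time it was 0 to 12: 12 without mouse 3, 3 without the heart tumor (Car1, Lamp5 and Ighm), 3 without mouse 4 and 1 without the subcutaneous tumor of mouse 3. With centring it was 3 with the replicate block, 1 with the floor at the 25th percentile and 0 to 93 with tumors or mice left out: 93 without the subcutaneous tumor of mouse 3 (18 higher, 75 lower), 24 without mouse 3, 4 without mouse 4 and 2 without the heart tumor. The cause of these counts was not tested.

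At p under 0.01 the count without centring was 359. It was 203 with the mouse as a random block, 222 as a replicate block, 122 with 1 mean per mouse and location, 140 without the liver tumors, 113 without the lymph node tumors and 117 (without mouse 1) to 1535 (without mouse 3) with tumors or mice left out. With centring the count was 634. It was 174 with the random block, 222 with the replicate block, 85 with 1 mean per mouse and location, 156 for 13 tumors with the mouse as a replicate block, 274 without the liver tumors, 146 without the lymph node tumors and 118 to 1723 with tumors or mice left out. Without the subcutaneous tumor of mouse 3 it was 1085 uncentred and 1630 centred, and without the heart tumor 881 uncentred.

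Of the 24 named genes, the centred Dynll2 difference (0.02) was −0.22 to 0.22 with tumors or mice left out, −0.10 without the liver tumors and −0.17 without the lymph node tumors, and the centred Tm4sf1 difference was 0.05 without the subcutaneous and inguinal tumors. No other named gene changed sign in any setting, and 6 passed an adjusted p of 0.05 in 1 setting, centred without the subcutaneous tumor of mouse 3. The replicate block turned the uncentred medians of 6 of the 14 lists, DNA replication (−0.76 to 0.11), mitosis (−0.49 to 0.20), MHC class II (1.01 to −0.06), fibroblast (0.48 to −0.71), mesothelium (0.35 to −0.20) and T lymphocyte genes (0.14 to −0.06). With centring it turned alveolar type 2 genes (0.30 to −0.16) and the same lists other than T lymphocyte genes. With the replicate block all probe sets had a median of −0.069 in both comparisons. The class II and T lymphocyte medians lay near that value. Over all settings the median was 0.24 to 0.43 for endothelium, −0.89 to −0.20 for glycolysis and −1.97 to −0.29 for hepatocyte genes, without centring.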

Other observations

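Several transcripts divided the tumors by neither location nor mouse. Sfpq, an RNA-binding protein of nuclear paraspeckles, was at 1089, 1278, 1307 and 1435 in the lymph node tumors of mice 3 and 4, the pleural tumor and the subcutaneous tumor of mouse 3. It was at 104 in the heart tumor, 124 to 162 in the 4 tumors of mice 1 and 2, and 109 to 232 in the 4 matched primary tumors. Taok1, a kinase, had the same order at a lower level, with 474 to 535 in those 4 metastases, 123 in the heart tumor and 77.4 to 93.3 in mice 1 and 2. Both genes were chosen after their values had been seen, and their unadjusted p in the comparison of location was 0.145 and 0.0501 (limma adjusted p = 0.664 and 0.600).

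Car1, a carbonic anhydrase, had the smallest p of all probe sets without centring (2e-05, limma adjusted p = 0.447), but its values were 2.23, 5.29, 4.91 and 4.14 in thoracic tumors and 1, the floor, in all distant and matched primary tumors.

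Of 9 MHC class I presentation genes, 2 were higher in thoracic tumors at p under 0.05 (22.2%, against 2.95% of all genes) and 1 lower without centring, with a median of 0.08, and 0 in either direction with centring, with a median of −0.01. The 2 higher genes, H2-K1 and H2-D1, had non-overlapping groups and differed by 0.45 and 0.33 within mouse 3. The lower gene was Psmb10, a subunit of the immunoproteasome. The gastric and intestinal list of 15 genes had a median of 0.14 without and −0.64 with centring on the primary tumors. It had 1 lower (6.67%, against 5.2% of all genes) without and 2 lower (13.3%, against 8.59%) with centring, and 0 higher. The primary tumor of mouse 3 was far above the other matched primaries for Lgals4 (1885 against 127 to 131) and Tff1 (4150 against 698 to 1179). For Gkn2 it was the lowest (1403 against 2953 to 4762). Its part in the change was not tested. The interferon response list of 22 genes had 0 members at p under 0.05 in either direction without centring and a median of −0.03. With centring it had 1 higher (4.55%, against 4.03% of all genes) and 1 lower (4.55%, against 8.59%). Its centred median was −0.32, against −0.05 for all genes, and 16 of 22 differences were negative.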
